A study of Caenorhabditis elegans with 6 samples.

Results

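The regions described here are the 362 UNC-55 binding regions, called peaks below, that lie in the piRNA gene domains of Caenorhabditis elegans chromosome IV, out of 8836 peaks in the combined list and 1218 on that chromosome. They were chosen by position alone: a peak belongs to the left domain when its midpoint falls between 4.5 and 7 Mb of chromosome IV, and to the right domain when it falls between 13.5 and 17.2 Mb, on the WormBase WS220 genome. The left domain held 190 of them and the right domain 172, and the remaining 856 peaks of the chromosome, called the rest of IV, served for comparison. UNC-55 was mapped by ChIP-seq in 3 ChIP samples, and 3 input samples of unprecipitated chromatin from the same strain served as controls, without a peak list used here. All 6 samples carried the same labels: strain NC1639, hermaphrodites at the L2 stage, with the integrated transgene wdIs49 on chromosome III, which drives UNC-55a::GFP from the ttr-39 promoter beside a dpy-20+ marker. The labels state that the strain was not outcrossed and that GFP appears in the GABA motor neurons of the ventral cord and, ectopically, in some other cells. Binding by the transgene product is therefore what was measured. The title of the series differs from these labels in both factor and stage, and the labels were followed.

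UNC-55 is a nuclear receptor of the COUP-TF family and is known for setting the synaptic pattern of ventral cord motor neurons that use GABA. piRNAs are small RNAs that are bound by the Argonaute protein PRG-1 in the germ line, where they silence foreign and selfish sequences. Most C. elegans piRNA genes are short units, each with its own promoter, that sit between and inside other genes of chromosome IV in a pair of broad domains. In the RefSeq gene table of the assembly WBcel235, 14714 of 15363 piRNA genes (95.8%) are on chromosome IV, and no other chromosome has more than 202. That table belongs to a different build, so no gene was assigned to a peak, and no sequence of the peaks was read.

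The 4 peak lists differ in length: the combined list had 8836 peaks, replicate 1 had 6805, replicate 2 had 4909 and replicate 3 had 2803. Chromosome IV supplied 13.8% of the combined list, 12.8% of replicate 1, 11.4% of replicate 2 and 7.21% of replicate 3. Between 10 and 11 Mb of IV the combined list is empty, although replicates 1, 2 and 3 have 45, 39 and 21 peaks there. This lowers the combined density of the rest of IV, and of any other stretch below that includes part of that Mb, so values without it are given where they matter. The lists carry no read counts, and the depth behind them is unknown. Nothing in the labels says that the replicates came from separate cultures, so the spread between them may be technical.

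The right domain was the sparse one. It held 46.5 combined peaks per Mb against 76.0 in the rest of IV, a ratio of 0.612. In the replicate lists, the right domain had 25.4 peaks per Mb in replicate 1, 17.0 in replicate 2 and 7.03 in replicate 3. The rest of IV had 57.8, 36.7 and 13.0 peaks per Mb in the same lists. The right domain was lower in all 3 replicates, with ratios of 0.440, 0.465 and 0.539. Their mean was 0.481 ± 0.0515 (SD, n = 3; two-sided exact permutation p = 0.25, adjusted p = 0.4 over 8 tests). With 3 replicates 0.25 is the smallest p that this test can give, so none of the 8 tests of domains against the rest of IV could pass a threshold of 0.05. The combined ratio was higher than that of any replicate, and it was 0.558 with the Mb that is empty in the combined list left out of the rest of IV. When the peaks of the 3 replicates were merged and used in place of the combined list, the right domain had 25.7 regions per Mb against 58.7, a ratio of 0.437. Peaks covered 2.49% of the right domain and 4.06% of the rest of IV in the combined list.

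**Figure D1:**
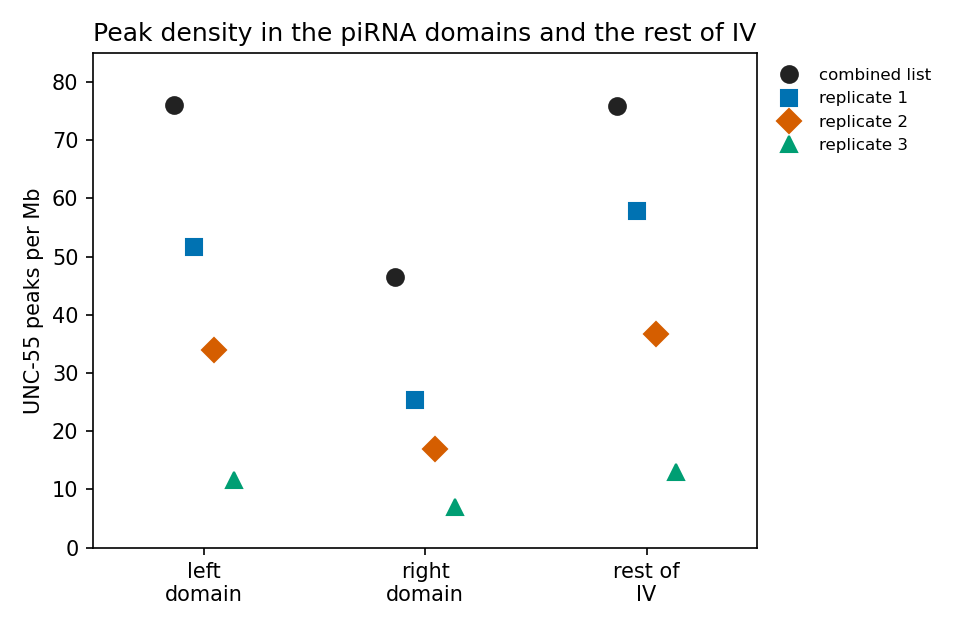
UNC-55 peaks per Mb (vertical axis) in the left domain, the right domain and the rest of chromosome IV, with 1 point for each peak list. In every list the right domain lies lowest, at 46.5 peaks per Mb in the combined list and at 25.4, 17.0 and 7.03 in replicates 1, 2 and 3.

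Density differed across the bounds of the right domain in the longer lists. Over the Mb on either side of its start, the combined list had 45 peaks inside and 95 outside. Replicate 1 had 25 inside and 59 outside, replicate 2 had 19 and 29, and replicate 3 had 8 and 9. The step was thus present in the combined list and replicate 1, smaller in replicate 2, and 1 peak in replicate 3. At the other bound the last Mb of the domain held 50 combined peaks, while the remaining 0.268 Mb up to the last peak of the chromosome held 26, or 96.9 per Mb. In the replicates this last stretch held 21, 13 and 4 peaks, which is 78.3, 48.4 and 14.9 per Mb, against 30, 20 and 6 in the last Mb of the domain. Inside the domain the density was even. Its 7 full bins of 0.5 Mb held between 19 and 28 combined peaks, with a median of 23. The 22 such bins of the rest of IV had a median of 43.5 and a range of 0 to 65, where the value of 0 comes from the empty Mb. In replicate 1 the bins of the right domain held 10 to 16 peaks and those of the rest of IV 18 to 46, without overlap. The ranges overlapped in replicate 2, at 6 to 11 in the right domain and 10 to 36 in the rest of IV, and in replicate 3, at 1 to 4 and 2 to 17. In the combined list they also overlapped outside the empty Mb, where the bin from 2 Mb held 24 peaks.

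**Figure D2:**
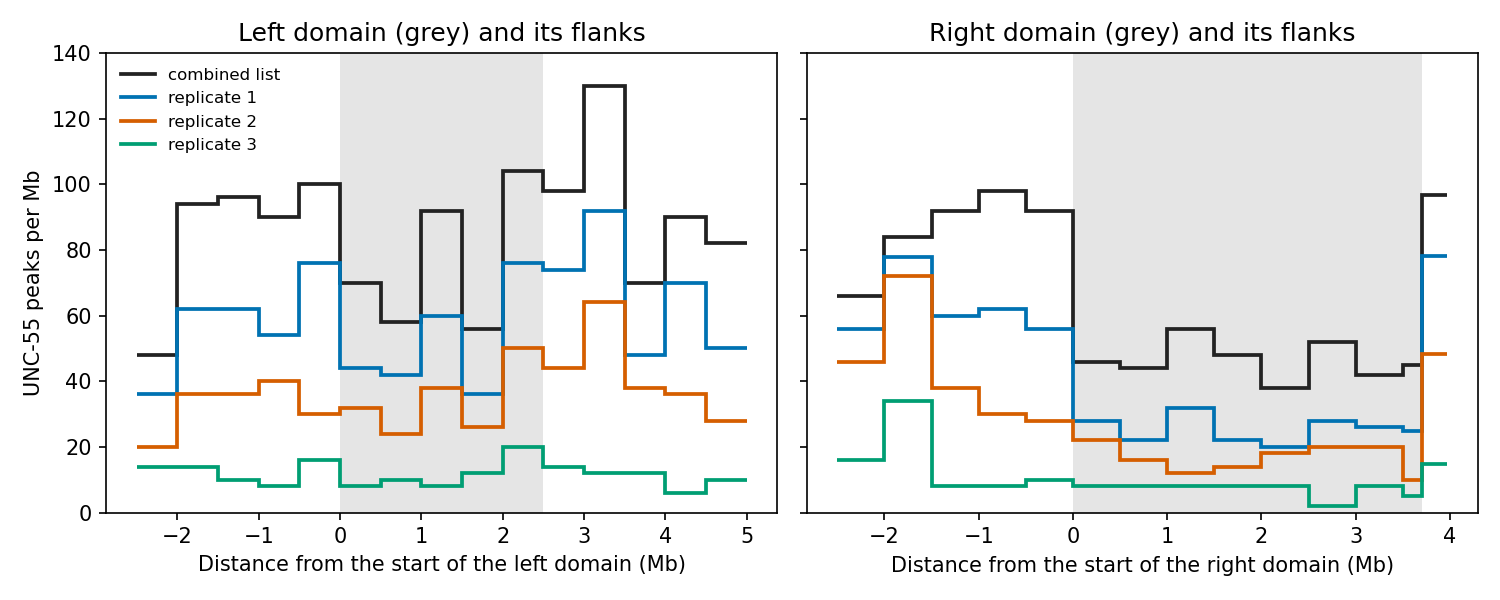
UNC-55 peaks per Mb (vertical axis) in steps of 0.5 Mb, or of what is left of a domain or the chromosome, against the distance in Mb from the start of the left domain and of the right domain, with the domain in grey and a line for each list. The combined list stands at 45 peaks in the first Mb of the right domain and at 95 in the Mb before it.

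The left domain differed far less from the rest of IV, and its value depended on the list. It held 76.0 combined peaks per Mb, as did the rest of IV, a ratio of 1.0005 that became 0.912 without the empty Mb. In replicates 1, 2 and 3 it had 51.6, 34.0 and 11.6 peaks per Mb, against 57.8, 36.7 and 13.0 in the rest of IV. The ratio was below 1 in all 3 replicates, with a mean of 0.903 ± 0.0212 (SD, n = 3; exact permutation p = 0.25, adjusted p = 0.4). Peaks covered 4.43% of the left domain and 4.06% of the rest of IV in the combined list, with the empty Mb counted in the rest of IV. Density within the left domain was uneven. Its 5 bins of 0.5 Mb held 28 to 52 combined peaks, and the bin from 6.5 Mb to the end of the domain was the fullest in every list, with 52 combined peaks and 38, 25 and 10 in replicates 1, 2 and 3. With 250 kb taken off each end the combined ratio was 0.823. Against the mirrored stretch, at the same distance from the right end of IV, the combined ratio was 1.12, but 0.532 Mb of that stretch lies in the empty Mb, and the ratio was 0.880 over the remainder of it. In replicates 1, 2 and 3 the left domain had 0.872, 0.780 and 0.674 times the density of the whole mirrored stretch. The Mb inside its start held 64 combined peaks against 95 just outside, and the Mb inside its end held 80 against 114. In replicate 1 these pairs were 43 against 65 and 56 against 83. Replicate 2 had 28 against 35 and 38 against 54. Replicate 3 had 9 against 12 at the start but 16 against 13 at the end.

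The right domain ends 0.268 Mb before the last peak of IV, so it also lies near a chromosome end. Stretches at the same distance from each of the 12 chromosome ends were set beside it. The mirrored stretch at the left end of IV, at the same distance from the first base, held 76.5 combined peaks per Mb, so that the right domain had 0.608 times its density. In the replicates the mirrored stretch had 51.9, 31.6 and 11.6 peaks per Mb. As a ratio to the rest of its own chromosome, the right domain stood at 0.612 in the combined list and the other 11 stretches between 0.516 and 1.13, with a median of 0.846. It was the third lowest there, the second lowest in replicates 1 and 2 and the fourth lowest in replicate 3. With the empty Mb left out of the remainder of IV its combined ratio was 0.567. By peaks per Mb alone, it was the second lowest of the 12 in the combined list and the lowest in every replicate, with 25.4, 17.0 and 7.03 against at least 28.4, 18.9 and 11.6 in the other 11. By the ratio, the stretch on the right end of chromosome V was the lowest in every list, with values of 0.516 in the combined list and 0.445, 0.409 and 0.419 in replicates 1, 2 and 3. Position near the end and piRNA genes cannot be told apart for the right domain from these lists.

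**Figure D3:**
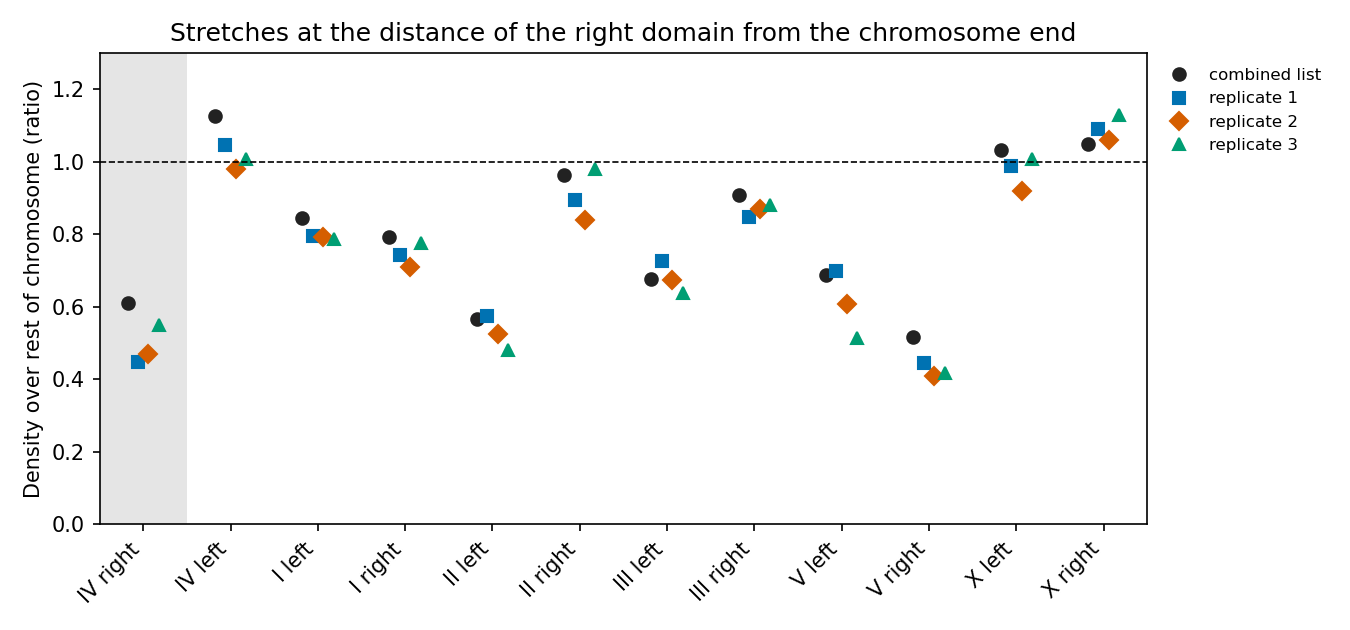
Peak density in a stretch of the length of the right domain, at the same distance from the end, divided by the density in the remainder of the same chromosome (vertical axis), for the 12 chromosome ends and 4 lists, with the right domain in grey and a dashed line at a ratio of 1. The right domain, at 0.612 in the combined list, lies low, and the right end of V lies lower still, at 0.516.

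In the combined list the gaps of the right domain differed from those of the rest of IV mainly at the long end. In the replicates its median gap was longer as well. Neighbouring combined peaks were separated by a median of 5.80 kb in the right domain and 5.07 kb in the rest of IV, a difference of 0.731 kb. The upper quartiles of the gaps were further apart, at 29.2 kb in the right domain against 15.2 kb in the rest of IV. Gaps of at least 50 kb numbered 24 in the right domain and together took up 55.7% of it. The rest of IV without the empty Mb had 29 such gaps, which took up 19.5% of its length. In the replicates, long gaps took up 71.2%, 81.6% and 84.0% of the right domain. Without that Mb they took up 28.3%, 48.0% and 80.4% of the rest of IV, so replicate 3, with its few peaks, shows little contrast. The lower quartile of the gaps was longer in the right domain in all 3 replicates, at 3.95, 5.97 and 43.4 kb against 2.65, 5.58 and 17.4 kb. The median gap was longer there too, at 18.5, 29.9 and 91.8 kb against 8.82, 16.2 and 45.6 kb. The mean difference was 23.2 ± 20.0 kb (SD, n = 3; exact permutation p = 0.25, adjusted p = 0.4), and it was 11.7 kb without replicate 3, whose list is the shortest. Short gaps, of at most 2 kb, were nearly as common as elsewhere in the combined list. They made up 25.1% of the gaps in the right domain and 29.5% in the rest of IV. In replicates 1, 2 and 3 they made up 15.1%, 12.9% and 8.00% in the right domain, against 20.2%, 10.7% and 4.17%. These right-domain shares rest on 14, 8 and 2 gaps. The longest empty stretches of the right domain in the combined list ran from 13522144 to 13689429 (167 kb), from 16120093 to 16257273 (137 kb) and from 16257536 to 16381019 (123 kb). No replicate had a peak in any of them. A single combined peak, of rank 7882, separates the second and the third of these. It was found in no replicate, so in each replicate these stretches run together.

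In the left domain the median gap was 4.28 kb in the combined list, against 5.07 kb in the rest of IV. Over the replicates it was 8.97, 18.4 and 39.6 kb in the left domain and 8.82, 16.2 and 45.6 kb in the rest of IV. The difference changed sign among them, with a mean of -1.24 ± 4.25 kb (SD, n = 3; exact permutation p = 1), or 1.15 kb without replicate 3. Its longest empty stretches in the combined list ran from 4881045 to 5038812 (158 kb), from 6649009 to 6747666 (98.7 kb) and from 5395079 to 5492259 (97.2 kb). Replicate 1 had 1 peak in the last of these, and the replicates had no other peak in the 3 stretches. Gaps of at least 50 kb took up 27.5% of the left domain in the combined list, against 19.5% of the rest of IV without the empty Mb. In replicates 1, 2 and 3 they took up 37.5%, 52.2% and 71.7%, against 28.3%, 48.0% and 80.4%. The left domain was thus higher in replicates 1 and 2 and lower in replicate 3.

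Runs of peaks with gaps of at most 2 kb occurred in both domains. In the left domain 38 of 190 peaks (20.0%) were in runs of 3 or more, in the right domain 30 of 172 (17.4%), and in the rest of IV 196 of 856 (22.9%). The longest runs of the left domain had 5 peaks each and spanned 9854 bp from 6950832, 6809 bp from 4570545 and 5787 bp from 5957066. The longest of the right domain had 5 peaks over 5411 bp from 15471287, and the rest of IV had a run of 9. Whether peaks of a run are separate binding regions cannot be told from the lists.

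Peaks of the left domain were slightly broader than those of the rest of IV in each list. In the combined list they had a median width of 470.5 bp, against 431.5 bp in the rest of IV. In the replicates it was 463, 464 and 447 bp in the left domain, against 421, 407 and 410 bp in the rest of IV. The mean difference was 45.3 ± 10.4 bp (SD, n = 3; exact permutation p = 0.25, adjusted p = 0.4). Among the combined peaks found in all 3 replicates the left domain was 14 bp narrower (a difference of -14 bp). Against the neighbouring stretch from 7 to 10 Mb the difference in the combined list was 16 bp.

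In the right domain the lists went different ways. In the combined list its peaks had a median width of 420.5 bp, a difference of -11 bp from the rest of IV. In the replicates it was 500, 457 and 514 bp in the right domain, against 421, 407 and 410 bp in the rest of IV, broader in all 3. The mean difference was 77.7 ± 27.0 bp (SD, n = 3; exact permutation p = 0.25, adjusted p = 0.4). Restricting the combined list to peaks found in all 3 replicates gave a difference of 76.5 bp, and the better-scored 50% of the list gave 44 bp. A width of 1000 bp was reached by 21 of 190 left-domain peaks (11.1%) and 15 of 172 right-domain peaks (8.72%) of the combined list. In the rest of IV 68 of 856 (7.94%) reached it, and 9.13% of the whole combined list. In replicates 1, 2 and 3 it was reached by 7.75%, 2.35% and 0% of left-domain peaks. The rest of IV had 5.53%, 5.08% and 4.08%, so the left domain was higher in replicate 1 only. The right domain had 9.57%, 7.94% and 7.69%, from 9, 5 and 2 peaks. At the other extreme, 2 left-domain and 5 right-domain peaks of the combined list were under 100 bp wide. In the rest of IV 30 of 856 were, and on the other chromosomes 302 of 7618. No replicate list had a peak under 100 bp in either domain. The rest of IV had 21 of 651, 9 of 413 and 1 of 147 in replicates 1, 2 and 3. On the other chromosomes 72 of 5931, 20 of 4348 and 1 of 2601 were that narrow. Nothing is therefore read from their absence in the domains, which hold few peaks.

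The lists also differed on how well the right domain scored. Peaks were ranked within each list by the caller's value, and the rank is given as a percentile of the list, so that a low percentile means a better score. The median percentile of the combined list was 61.1 in the right domain and 47.6 in the rest of IV, a difference of 13.5 points. At the same distance from the other chromosome ends it ran from 46.3 (right end of III) to 60.6 (right end of V). In replicates 1 and 2 the right domain was the better scored, with medians of 43.3 and 49.2 against 52.2 and 57.1 in the rest of IV. In replicate 3 the medians were 57.2 and 56.6. The mean difference over the replicates was -5.45 ± 5.24 points (SD, n = 3; exact permutation p = 0.5, adjusted p = 0.667). On the other chromosomes the medians in replicates 1, 2 and 3 were 49.7, 49.4 and 49.5, so in replicate 2 the right domain was close to them. Of the right-domain peaks of the combined list, 62 (36.0%) lay in the worst-scored 25% of the list. Another 23 (13.4%) were among the 1000 best-scored, against 11.3% of all combined peaks. The left domain had a median percentile of 47.0 and likewise 23 peaks among the best 1000, or 12.1%. In replicates 1, 2 and 3 its medians were 50.8, 50.8 and 64.5, with a mean difference from the rest of IV of 0.0518 ± 7.20 points (SD, n = 3; exact permutation p = 1), or -3.86 points without replicate 3.

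**Figure D4:**
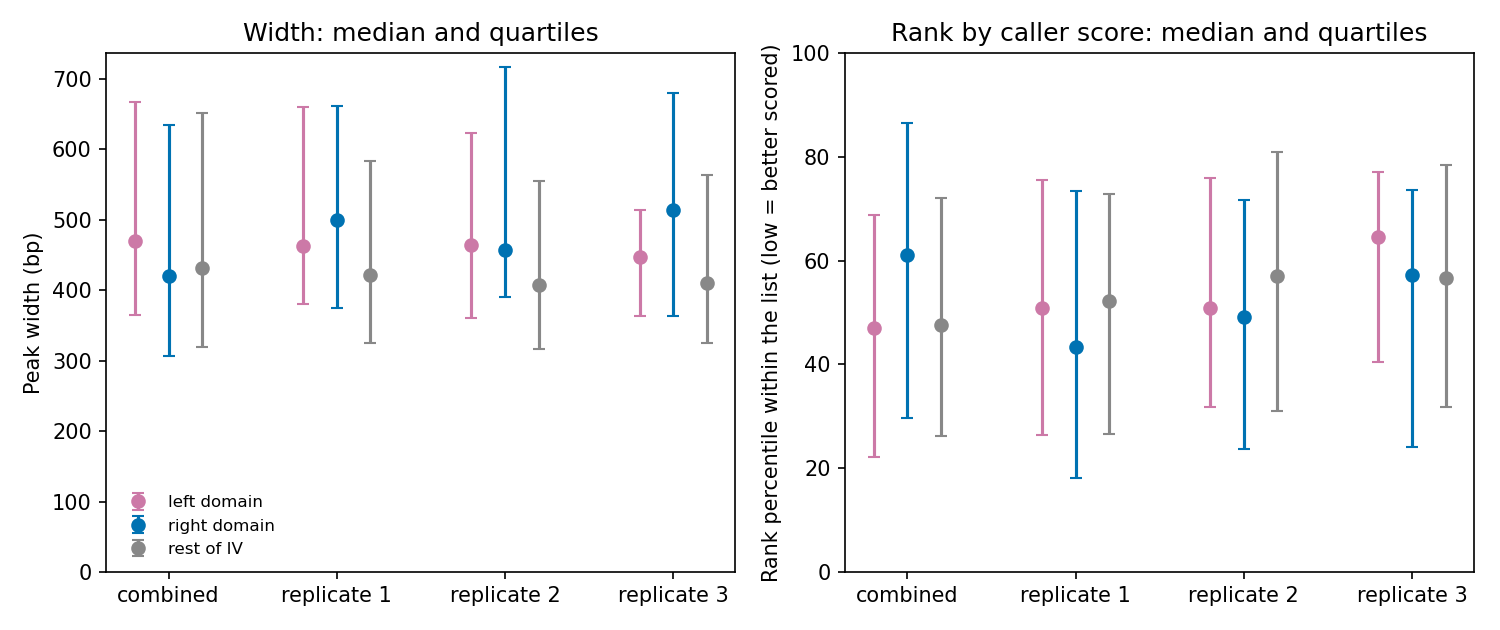
Peak width in bp and rank percentile within the list (vertical axes) for the 4 lists, with the median as a point and the quartiles as bars, for the left domain, the right domain and the rest of IV. The right domain has a higher median percentile than the rest of IV in the combined list, 61.1 against 47.6, and a lower one in replicates 1 and 2.

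A larger share of combined peaks lacked a counterpart in the replicates, by an overlap of at least 1 bp, in the right domain than in the rest of IV. No replicate held one for 77 of its 172 combined peaks (44.8%, exact 95% interval 37.2 to 52.5%), against 252 of 856 (29.4%, 26.4 to 32.6%) in the rest of IV and 24.4% of the whole list. The difference was 15.3 percentage points, and 7.53 points when replicate 1 was left out. At the same distance from the other chromosome ends, the share found in no replicate ran from 19.5% (left end of III) to 34.6% (right end of V). None of these 77 ranked in the better-scored 50%, and their median percentile was 87.9. Such peaks scored poorly elsewhere too. In the rest of IV 1 of 252 ranked in the better-scored 50%, and in the whole list 5 of 2154. Their median percentiles were 82.5 and 86.5. The 95 right-domain peaks found in at least 1 replicate had a median percentile of 32.2 and a median width of 557 bp, against 35.5 and 500 bp for the 604 such peaks in the rest of IV. In the left domain 64 of 190 peaks (33.7%, 27.0 to 40.9%) were found in no replicate, which is 4.24 points above the rest of IV, and -0.694 points without replicate 1. Intervals treat peaks as independent and cover counting error only.

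Shares of peaks found in every replicate were close together in the domains and the rest of IV. Peaks found in all 3 replicates numbered 29 in the left domain (15.3%, exact 95% interval 10.5 to 21.2%), 26 in the right domain (15.1%, 10.1 to 21.4%) and 125 in the rest of IV (14.6%, 12.3 to 17.1%). All 3 shares are below the 29.5% of the whole combined list and the 31.8% of the other chromosomes. Replicate 3 set these counts, as it contributed the fewest peaks on IV: in both domains the peaks found in replicate 3 were exactly those found in all 3. Without replicate 3, the share found in both others was lower in the right domain than in the rest of IV, by a difference of -6.82 points.

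**Figure D5:**
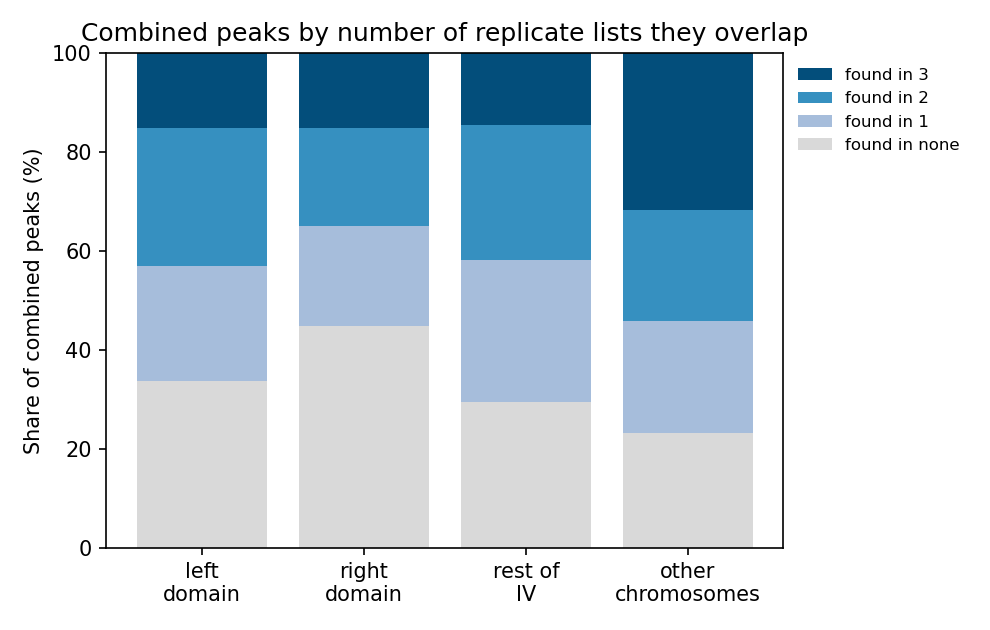
Share of combined peaks, in percent (vertical axis), that overlap a peak in 3, 2, 1 or none of the replicate lists, for the left domain, the right domain, the rest of IV and the other chromosomes. The share found in none is 44.8% in the right domain and 29.4% in the rest of IV, while the share found in 3 lies between 14.6% and 15.3% in the parts of IV and is 31.8% on the other chromosomes.

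The replicate lists were nested in both domains, and nearly so elsewhere. All 29 left-domain and 26 right-domain peaks of replicate 3 had a counterpart in both replicates 1 and 2. In replicate 2, 84 of 85 left-domain peaks and 62 of 63 right-domain peaks had one in replicate 1. Of 147 replicate 3 peaks in the rest of IV, 146 had one in replicate 1 and 145 in replicate 2. Of 413 replicate 2 peaks there, 397 (96.1%) had one in replicate 1. On the other chromosomes these shares were 99.3%, 96.6% and 96.0%. The combined list was made from the same ChIP samples, so overlap with it is not independent of the replicates. Every domain peak of every replicate overlapped a combined peak. Outside the empty Mb, so did 606 of 606, 371 of 374 and 126 of 126 peaks of replicates 1, 2 and 3 in the rest of IV. In the other direction, 84 of 129 left-domain peaks of replicate 1 (65.1%) and 60 of 94 right-domain peaks (63.8%) were found in replicate 2, against 400 of 651 (61.4%) in the rest of IV and 68.9% of all replicate 1 peaks. In replicate 3 the counts were 29 of 129 (22.5%) in the left domain, 26 of 94 (27.7%) in the right domain and 148 of 651 (22.7%) in the rest of IV, against 40.4% of all replicate 1 peaks. Of the replicate 2 peaks, 34.1% in the left domain, 41.3% in the right domain and 34.9% in the rest of IV were found in replicate 3, against 54.9% of the whole list. The low share of replicate 3 on chromosome IV was therefore present in both domains and outside them. The exact 95% interval of each domain's share of replicate 1 peaks, 15.6 to 30.7% for the left and 18.9 to 37.8% for the right, included the share of the rest of IV.

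The best-scored region of the right domain, and of both domains, ran from 14032025 to 14035591. It was 3567 bp wide, the widest of either domain, and held rank 18 in the combined list, with a caller's value of 7.95e-210. Its ranks in replicates 1, 2 and 3 were 30, 63 and 84, where its values were 1.46e-109, 1.13e-48 and 8.78e-22. Such ranks and values describe a peak within its own list, and no change between lists of unequal length is read from them. It was thus in the best 100 of every list. The next was the region from 16491183 to 16493024, of 1842 bp, ranked 68 in the combined list and 103, 290 and 635 in replicates 1, 2 and 3. These were the only right-domain peaks among the 100 best of the combined list, and the left domain had none. The next 5 by rank began at 15561030, 15646242, 14260266, 13887134 and 14463976, with combined ranks of 107, 122, 145, 181 and 185, and all were found in every replicate. The region from 14463976 to 14464457 was narrow, at 482 bp, and held ranks 159, 141 and 68 in replicates 1, 2 and 3, which are percentiles of 2.34, 2.87 and 2.43. Its edges agreed within 19 bp over the 3 replicates, against a median of 121 bp for the 26 replicate 1 peaks of the domain found in both others. The remaining members of the best 10 began at 14793612, 15696296 and 14371385, with combined ranks of 304, 369 and 401. The first and second of them were weak in replicate 3, with ranks of 2552 and 2026 out of 2803, and the region from 14371385 to 14372171 was not in that list. The region from 15696296 to 15698567, at 2272 bp, was the second widest of the domain, and that from 16476003 to 16477933, at 1931 bp and rank 413, the third. The best-scored right-domain region found in no replicate ran from 16036066 to 16036592, with rank 4541 and a value of 1.94e-12.

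In the left domain, 5 of the 10 best-scored regions lay between 6.7 Mb and its end, a stretch chosen after the values were seen. They began at 6838548, 6808495, 6954218, 6755852 and 6790150, with combined ranks of 126, 146, 153, 260 and 312, and each was found in all 3 replicates. From 6.7 to 7 Mb the domain held 37 of its 190 combined peaks, or 123 per Mb, and 8 of its 29 peaks found in every replicate. Such density was not confined to the domain: just beyond it the combined list had 98 per Mb from 7 to 7.5 Mb and 130 per Mb from 7.5 to 8 Mb. The region from 6838548 to 6839694 led the domain, with a value of 2.13e-106, and had ranks of 237, 125 and 1100 in replicates 1, 2 and 3. The region from 6954218 to 6956350, 2133 bp wide, belonged to the longest run, with ranks of 325, 173 and 575 in the replicates. The same run held the region from 6958525 to 6960685, of 2161 bp and rank 581, which was found in replicates 1 and 2 only.

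The best-scored left-domain peak of each replicate lay elsewhere, from 4749762 to 4750328 in the combined list. It was 567 bp wide, ranked 195 among the combined peaks, and held ranks 85, 69 and 83 in replicates 1, 2 and 3, percentiles of 1.25, 1.41 and 2.96. No other left-domain peak was in the best 100 of a replicate list. The other members of the best 10 began at 5548011, 6321619, 5952690 and 5103233, with combined ranks of 236, 443, 477 and 534. The region from 5952690 to 5954464 was not found in replicate 3, and that from 5103233 to 5104023 ranked 2354 there. The widest region of the domain, from 5602987 to 5605474, was 2488 bp wide, with rank 1092, and was likewise found in replicates 1 and 2 only. The best-scored left-domain region found in no replicate ran from 6294040 to 6294624, with rank 3747 and a value of 3.74e-16. No replicate 1 peak of either domain that was found in both others had edges within 10 bp across the replicates. In the rest of IV 2 of 146 did, and on the other chromosomes 11 of 2467. With only 29 such peaks in the left domain and 26 in the right, no difference is read from this.

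The peaks nearest to the bounds, on either side, were these. At the start of the left domain the first member ran from 4510842 to 4511760 (rank 3565) and the last peak outside from 4482742 to 4483185 (rank 4527). At its end the last member ran from 6992703 to 6993125 (rank 3741) and the first peak outside from 7011448 to 7012287 (rank 3362). The first member of the right domain, from 13500375 to 13500528 (rank 7271), lay 0.452 kb from the bound by its midpoint, and the last peak before it ran from 13487004 to 13487329 (rank 4198). Its last member ran from 17186055 to 17186382 (rank 5175), and the first peak beyond from 17209961 to 17211159 (rank 3767).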

How the data were processed

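Worms were grown at 20 °C and fixed with 2% formaldehyde, and antibodies to GFP pulled down UNC-55::GFP, per the labels' protocols. The authors called peaks with PeakSeq (named in the source column) on the build WS220, per the file headers. How reads were aligned, which version and threshold the caller used and how replicates were combined is not given in the sources used here. In each deposited list, column 6 holds a p-value or q-value per peak, at most 0.001, with no word on adjustment. It was used only to rank peaks within a list, with ties broken by peak number.

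Peaks were assigned by their midpoint, and chromosome IV was taken to end at 17468333, the last peak end in any list. Gaps run between neighbouring peaks of the same stretch. Lists were matched by an overlap of at least 1 bp, checked against bedtools (0 counts differed). Domain and rest of IV were compared within each replicate by a two-sided exact permutation (sign flip) test, with Benjamini-Hochberg adjustment over 8 tests. Intervals for shares are exact (Clopper-Pearson, 95%). Domains and lists were chosen with earlier results of these data known. The regions named are the 10 best-scored and 3 widest of each domain, the best found in no replicate, the 3 longest gaps and the longest run; regions outside this rule were chosen after their values were seen. No gene table or genome of WS220 was used here. The overlap and density code was tested on simulated data. Overlaps were checked with bedtools 2.31.1, figures were drawn with matplotlib 3.10.9, and all else ran in Python 3.11.15 with SciPy 1.17.1, pandas 2.3.3 and numpy 2.4.6.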

Additional observations from a re-analysis of the deposited data

How the results depend on the processing

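Of 124 values under other settings, 94 are counted as unchanged. They stayed within the spread between replicates or the interval of the share or, for replicate means, kept their direction. A further 25 moved beyond these, with or without a change of direction, and 5 reversed. Some of the 94 changed sign within that spread or interval. With bounds drawn in by 250 kb the combined left gap difference went from -0.795 to 1.67 kb and the right width difference from -11 to 2.5 bp. Leaving out replicate 1 could not move the shares found in all others. On IV every combined peak in both replicates 2 and 3 was also in replicate 1. The neighbouring stretch, the merged replicate peaks and all alternatives for the share found in no replicate were chosen later, with the data in view. Values below compare a domain with the rest of IV in the combined list unless stated. The left density ratio of 1.0005 became 0.912 without 10 to 11 Mb, 1.12 against the mirrored stretch (part of which is empty in the combined list, and below 1 in each replicate), 0.823 with bounds drawn in by 250 kb, 1.05 for peaks found in all 3 replicates, 0.857 against the neighbouring stretch and 0.878 with merged replicate peaks. The right ratio of 0.612 became 0.558 without 10 to 11 Mb, 0.497 in the better-scored 50%, 0.538 against the neighbouring stretch and 0.437 with merged peaks, below 1 in each. The left width difference of 39 bp became 90 bp (mirrored stretch), 53.5 bp (drawn-in bounds), 56 bp (better-scored 50%), 16 bp (neighbouring stretch) and turned to -14 bp for peaks found in all 3. The right one of -11 bp became 76.5 bp (found in all 3), 44 bp (better-scored 50%), 33.5 bp (neighbouring stretch) and 74 bp (merged). For peaks found in all 3 the median gap difference was -10.1 kb in the left domain and 42.2 kb in the right, and the right rank difference was 0.0283 points. In the better-scored 50% the left gap difference was 3.68 kb, the right share found in all 3 was 7.65 points higher, and the right share found in no replicate turned to -0.224 points. Leaving out 1 replicate gave a left mean gap difference of -2.93 to 1.15 kb, a left mean rank difference of -3.86 to 3.21 points (-0.423 without 10 to 11 Mb), a right share in all others of -6.82 to 0.513 points and a right share in none of 7.53 to 15.3 points. Other than the smaller lists that some settings leave, the cause was not tested. No paired analysis was possible because no peak list of an input sample was used here; this holds for ChIP against input, while domain and rest of IV were compared within each replicate. The depth of the lists is unknown and limits what the shorter ones can show.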
